A study of Homo sapiens with 16 samples.

Results

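BHLHE40 and 8 other human genes of the circadian clock were examined for chromatin binding and histone acetylation after TGFB1 or vehicle in A375 cells, an established line from a human melanoma. The genes were BHLHE40, BHLHE41, PER1, PER2, PER3, CRY1, CRY2, NR1D1 and DBP, which are 9 of the 19970 protein-coding RefSeq genes on chromosomes 1 to 22 and X. BHLHE40 was chosen on measured values: one of its SMAD2/3 peaks, called with TGFB1 and not with vehicle, ranked 17 of 11406 in its list. Its SMAD2/3 values are therefore a description and support nothing. The other 8 genes were added as relatives and partners of BHLHE40 in the clock. A peak was assigned to a gene when its summit lay in the gene body or within 50 kb of it, which gave 447 of the 399028 peaks in all 10 peak lists.

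The series holds 16 samples, of which 10 are immunoprecipitated libraries with a peak list each and 6 are inputs not analysed here. Cells were serum-starved for 2 h and then received TGFB1 at 10 ng/mL, or its vehicle (1 mg/mL BSA in 4 mM HCl), during a further 2 h. The 5 antibodies, 10 µg each, recognised SMAD2/3 (the transcription factors that TGF-beta receptors activate), H3K27ac (acetylated histone H3, found at active promoters and enhancers), JUNB and ATF3 (basic leucine zipper factors of the AP-1 superfamily), and MITF (the leading transcription factor of pigment cells). Each antibody and treatment had 1 library, so there were no replicates and no difference below was tested. Per the labels there were 3 experiment dates, one for H3K27ac and SMAD2/3, one for MITF and one for JUNB and ATF3. Each TGFB1 library shared its date with its vehicle library, but between these sets the antibody cannot be told apart from the date.

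The clock is a transcription loop. CLOCK and BMAL1 bind E-boxes and switch on the PER and CRY genes, whose proteins return to the nucleus and inhibit CLOCK and BMAL1. BHLHE40 and BHLHE41 (also called DEC1 and DEC2) bind E-boxes themselves and repress them. NR1D1, also called REV-ERBα, is a nuclear receptor that represses BMAL1 from ROR elements, and DBP is an activator of the PAR bZIP family that binds D-boxes. BHLHE40 is known as an immediate target of TGF-beta in other cells, and it has been described downstream of MITF in melanoma cells.

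RefSeq promoter sequences (GRCh38.p14, 250 bases before to 50 bases after the start) were matched for all 9 genes, with 2 starts each for PER3 and CRY2. The 5 shown either hold an E-box (BHLHE40, BHLHE41 and PER1), have a SMAD2/3 peak within 1 kb of the start (BHLHE40 and PER2) or lie under a MITF peak (NR1D1). Each is written 5′ to 3′ on the strand of the gene, and capitals mark matches to the motifs named after them. BHLHE40 is at chr3:4979187-4979486 (plus strand), BHLHE41 at chr12:26124988-26125287, PER1 at chr17:8152355-8152654, PER2 at chr2:238288561-238288860 and NR1D1 at chr17:40100540-40100839 (minus strand).
BHLHE40: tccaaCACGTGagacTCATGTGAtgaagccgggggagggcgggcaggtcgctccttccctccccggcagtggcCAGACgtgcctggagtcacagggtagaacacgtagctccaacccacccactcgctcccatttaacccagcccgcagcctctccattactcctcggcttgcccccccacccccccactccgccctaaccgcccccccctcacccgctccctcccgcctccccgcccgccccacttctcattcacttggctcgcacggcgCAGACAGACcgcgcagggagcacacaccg
BHLHE41: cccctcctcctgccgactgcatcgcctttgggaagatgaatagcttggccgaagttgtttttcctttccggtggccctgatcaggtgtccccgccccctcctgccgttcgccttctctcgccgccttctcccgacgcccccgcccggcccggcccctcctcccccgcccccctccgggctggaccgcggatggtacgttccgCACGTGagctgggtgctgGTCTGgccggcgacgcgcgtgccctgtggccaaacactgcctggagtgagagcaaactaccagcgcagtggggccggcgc
PER1: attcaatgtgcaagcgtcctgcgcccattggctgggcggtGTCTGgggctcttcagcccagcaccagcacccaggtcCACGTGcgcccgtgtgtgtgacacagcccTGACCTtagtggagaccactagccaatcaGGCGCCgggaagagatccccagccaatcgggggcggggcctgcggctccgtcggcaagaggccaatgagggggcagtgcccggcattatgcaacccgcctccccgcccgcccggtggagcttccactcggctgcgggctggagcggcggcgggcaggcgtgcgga
PER2: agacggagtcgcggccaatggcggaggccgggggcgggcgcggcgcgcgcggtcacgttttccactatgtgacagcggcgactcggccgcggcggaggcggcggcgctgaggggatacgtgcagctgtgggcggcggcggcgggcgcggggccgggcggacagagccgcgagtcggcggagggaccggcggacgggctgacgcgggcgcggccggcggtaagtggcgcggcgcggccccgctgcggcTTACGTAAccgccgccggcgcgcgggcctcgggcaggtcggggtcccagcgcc
NR1D1: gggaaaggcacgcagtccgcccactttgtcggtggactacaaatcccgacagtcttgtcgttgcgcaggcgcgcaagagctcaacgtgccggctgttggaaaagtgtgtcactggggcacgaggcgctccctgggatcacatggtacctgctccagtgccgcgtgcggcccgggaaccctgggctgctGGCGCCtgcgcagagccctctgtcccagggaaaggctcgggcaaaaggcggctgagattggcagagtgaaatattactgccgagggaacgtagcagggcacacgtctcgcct
Motifs were searched on both strands, and positions count the start as 0. The E-box CACGTG occurred in the BHLHE40 promoter at -245, in BHLHE41 at -48 and in PER1 at -173, and 7.23% of the 34943 promoters in the table hold it. The M-box TCANGTGA, an E-box form that MITF prefers, occurred only in BHLHE40 among the 9 genes, at -235, beside its E-box (3.80% of all promoters). Its letters there are TCATGTGA, which do not overlap the E-box. The SMAD-binding CAGA box CAGAC occurred 3 times in BHLHE40, at -177, 21 and 25, the last pair overlapping by 1 base, and once each in BHLHE41, PER1 and a CRY2 promoter, against 45.3% of all promoters. The GC-rich SMAD element GGCGCC was present in PER1, PER3, CRY2 and NR1D1, where it lay at -62 (19.2% of all promoters). The D-box TTANGTAA lay across the start of PER2 at -3 and in PER3 at -177 (2.19% of all promoters). The half-site AGGTCA of the ROR element, which is not the whole element, was found in PER1 and CRY2 (13.8% of all promoters). Neither the AP-1 site TGANTCA (7.72% of all promoters) nor the CRE TGACGTCA (1.84%) was found in the 11 promoters. A match is a stretch of letters and not a shown binding site.

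Summed over the 9 genes, the SMAD2/3 lists held 17 peaks with TGFB1 and 3 with vehicle, the ATF3 lists 62 and 15, and the JUNB lists 65 and 30. H3K27ac had 110 peaks with TGFB1 and 115 with vehicle, and MITF had 14 and 16. The whole lists also differed, with 11406 SMAD2/3 peaks with TGFB1 and 1247 with vehicle, 62997 and 49563 for ATF3, and 64407 and 38514 for JUNB. They held 80990 and 79172 for H3K27ac, and 5037 and 5695 for MITF. BHLHE40 contributed 9 of the 17 SMAD2/3 peaks with TGFB1. A TGFB1-only or vehicle-only peak is one with no overlap, by 1 bp or more, in the same antibody's other list, which states where the caller listed a peak and not that binding was absent.

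**Figure D1:**
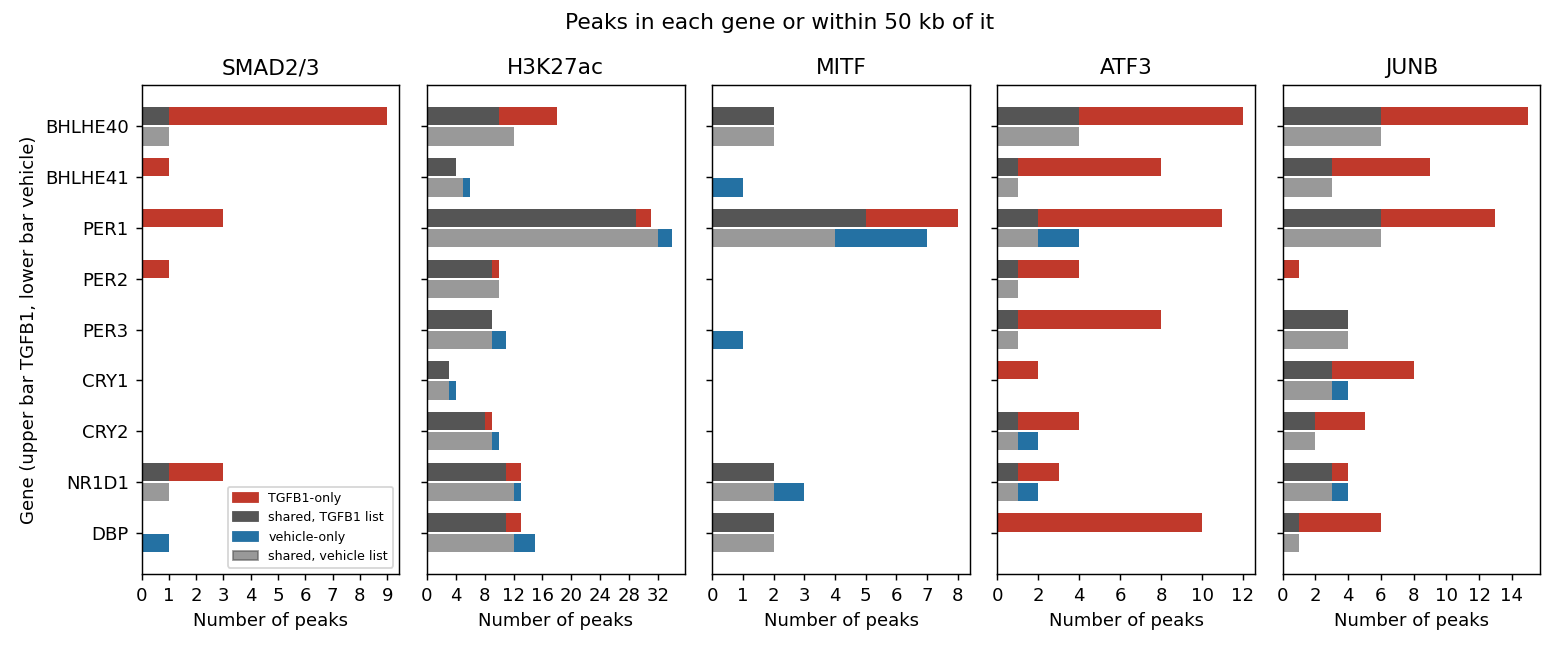
Number of peaks (horizontal axis) in each gene or within 50 kb of it, for the 5 antibodies. In each pair the upper bar is TGFB1 and the lower bar vehicle, with red for TGFB1-only, blue for vehicle-only and grey for shared peaks. BHLHE40 has 9 SMAD2/3 peaks with TGFB1 and 1 with vehicle, while PER1 has the most H3K27ac peaks, 31 and 34.

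A SMAD2/3 TGFB1-only peak was present at 5 of the 9 genes (BHLHE40, BHLHE41, PER1, PER2 and NR1D1), against 46.9% of all 19970 genes. A vehicle-only one was present at DBP alone, against 0.841% of all genes. For H3K27ac, 6 genes had a TGFB1-only peak and 7 a vehicle-only peak, with 55.5% and 52.7% of all genes. For MITF, 1 gene (PER1) had a TGFB1-only peak and 4 a vehicle-only peak, with 21.1% and 24% of all genes. For ATF3, all 9 genes had a TGFB1-only peak and 3 a vehicle-only peak, with 88.9% and 56.8% of all genes. For JUNB, 8 genes had a TGFB1-only peak and 2 a vehicle-only peak, with 85.4% and 51.6% of all genes. As a set, then, the 9 genes were near the share of all genes for SMAD2/3, H3K27ac, ATF3 and JUNB with TGFB1, and what follows concerns single genes.

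Library depth differed within pairs. The lowest local background in each list, recovered from the deposited fold and p-values, was 0.690 reads with TGFB1 and 1.08 with vehicle for SMAD2/3, and 1.59 and 0.352 reads for ATF3. It was 1.47 and 1.36 reads for H3K27ac, 0.493 and 0.506 for MITF, and 2.54 and 1.83 for JUNB. The SMAD2/3 library with more peaks thus had the lower background, while the ATF3 vehicle library was the shallower of its pair. TGFB1-only peaks at the 9 genes were scaled to the background of the vehicle library and held against the lowest −log10 p of its list. All 15 SMAD2/3, all 16 H3K27ac, all 3 MITF and 35 of the 37 JUNB peaks reached it. Of the 51 ATF3 peaks, 27 did, and the rest were not detectable at the depth of the vehicle library. For SMAD2/3 and MITF the scaling was upward, so their result was close to fixed in advance and is no check of depth. This reckoning was chosen after the data had been seen. The 1 that the caller adds to reads and background also weighs on ATF3, since many of its vehicle backgrounds were below 1 read. Of the 11 ATF3 peaks with TGFB1 that overlapped a vehicle peak, 10 had the higher fold with TGFB1 as deposited, and 5 when reads were divided by background with nothing added. The same counts were 23 and 23 of 28 for JUNB, and 40 and 38 of 94 for H3K27ac. ATF3 folds of the 2 treatments are therefore given below with both backgrounds or the plain ratio, and no direction is read from them. Strongest means of highest −log10 p throughout.

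The windows of most genes reach into neighbours. All 81 peaks assigned to BHLHE40 had it as their nearest protein-coding gene, while of the 366 peaks at the other 8 genes, 115 did and 251 lay nearer to or inside another gene. Neighbours are named below where this applies.

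BHLHE40, the E-box repressor that is itself a clock output, lies on chr3:4979437-4985323 on the plus strand and carried SMAD2/3 peaks at its promoter, in its body, just past its end and far downstream. Of the 9 peaks with TGFB1, 8 had no vehicle counterpart. Over the whole list, 5.65% of the 11406 SMAD2/3 peaks with TGFB1 overlapped a vehicle peak. Within the TGFB1 list, 60 of the 19970 genes (0.300%) had as many SMAD2/3 peaks, and the median gene had 0. BHLHE40 was chosen on a peak of this same list, so its standing there is a description and supports nothing. The fold enrichment of a peak is the deposited value of the authors' peak caller, the reads at the summit over the local background with 1 added to each, and reads are those recovered from the fold and p-value with an exact 95% Poisson interval, which covers counting error only.

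The strongest SMAD2/3 site was downstream of the gene, at chr3:4986664-4987265 and 7.55 kb from the start, and its summit held 147 reads (124 to 173) over a background of 3.28. The same site was called in 8 of the 10 lists. H3K27ac had 14.3-fold enrichment there with TGFB1 and 17.3-fold with vehicle, and MITF 10.5-fold and 8.10-fold. The H3K27ac peak held 120 reads over a background of 7.47 with TGFB1, and 87 reads over 4.10 with vehicle. It was 2539 bp wide with TGFB1 and 884 bp with vehicle. JUNB had 15.4-fold enrichment with 85 reads (67.9 to 105) with TGFB1, against 4.93-fold with 24 reads (15.4 to 35.7) with vehicle. ATF3 was called there with TGFB1 alone, at 14.3-fold and 63 reads (48.4 to 80.6), which is the ATF3 TGFB1-only peak of highest −log10 p (55.9) at the 9 genes. MITF and acetylation were thus listed at this element under both treatments, and SMAD2/3 and ATF3 with TGFB1 only.

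Inside the gene, at chr3:4983927-4984409 and 4.72 kb from the start, SMAD2/3 was enriched 15.1-fold with 45 reads (32.8 to 60.2) with TGFB1 and not called with vehicle. JUNB had 22.5-fold enrichment and 117 reads (96.8 to 140) with TGFB1 and 13.8-fold and 45 reads (32.8 to 60.2) with vehicle, and the first is the shared JUNB peak of highest −log10 p at the 9 genes. The H3K27ac peak over it was 1556 bp wide with 59 reads (44.9 to 76.1) and 14.4-fold enrichment with TGFB1, against 222 bp, 22 reads (13.8 to 33.3) and 4.10-fold with vehicle. The local background of H3K27ac here was 3.18 reads with TGFB1 and 4.61 with vehicle, and that of JUNB 4.25 and 2.33 reads. The deposited enrichment of both was thus higher with TGFB1, in single libraries.

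At the promoter, the SMAD2/3 peak chr3:4978251-4979337 reaches into the sequence shown above and has its summit at -0.368 kb. It had 52 reads (38.8 to 68.2) and 8.95-fold enrichment with TGFB1, against 18 reads (10.7 to 28.4) and 3.80-fold for the overlapping vehicle peak with its summit at -0.742 kb. This was the 1 BHLHE40 site that SMAD2/3 shared between treatments. H3K27ac at the promoter had 206 reads (179 to 236) with TGFB1 and 156 (132 to 182) with vehicle, at 25.8-fold and 21.1-fold. MITF had a peak upstream of the window shown, at -1.08 kb with TGFB1 and -1.11 kb with vehicle, with 8.98-fold enrichment (18 reads) and 5.60-fold (10 reads). The window itself, with its E-box and M-box, was under no MITF peak in either list.

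The remaining SMAD2/3 peaks with TGFB1 were weaker or more distant. A further 3 lay at the gene, with 3.45-fold enrichment (11 reads) at 0.148 kb, 5.49-fold (27 reads) at 1.07 kb and 4.26-fold (12 reads) at 6.52 kb from the start. Of these, the peak at 0.148 kb had a −log10 p of 4.94, close to the lowest in the vehicle list. Downstream, SMAD2/3 had 10.6-fold enrichment (53 reads) at 15.7 kb, 8.07-fold (17 reads) at 44.0 kb and 14.0-fold (53 reads) at 47.2 kb. At the last of these, ATF3 had its strongest peak at any of the 9 genes, with 228 reads (199 to 260) and 84.3-fold enrichment with TGFB1 and 80 reads (63.4 to 99.6) and 57.0-fold with vehicle. Over local backgrounds of 1.72 and 0.421 reads the plain ratios were 133 with TGFB1 and 190 with vehicle, so the direction turned with the added 1. JUNB was called there with TGFB1 alone at 11.2-fold. ATF3 was therefore listed at this distal element under both treatments, while SMAD2/3 and JUNB were listed there with TGFB1.

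**Figure D2:**
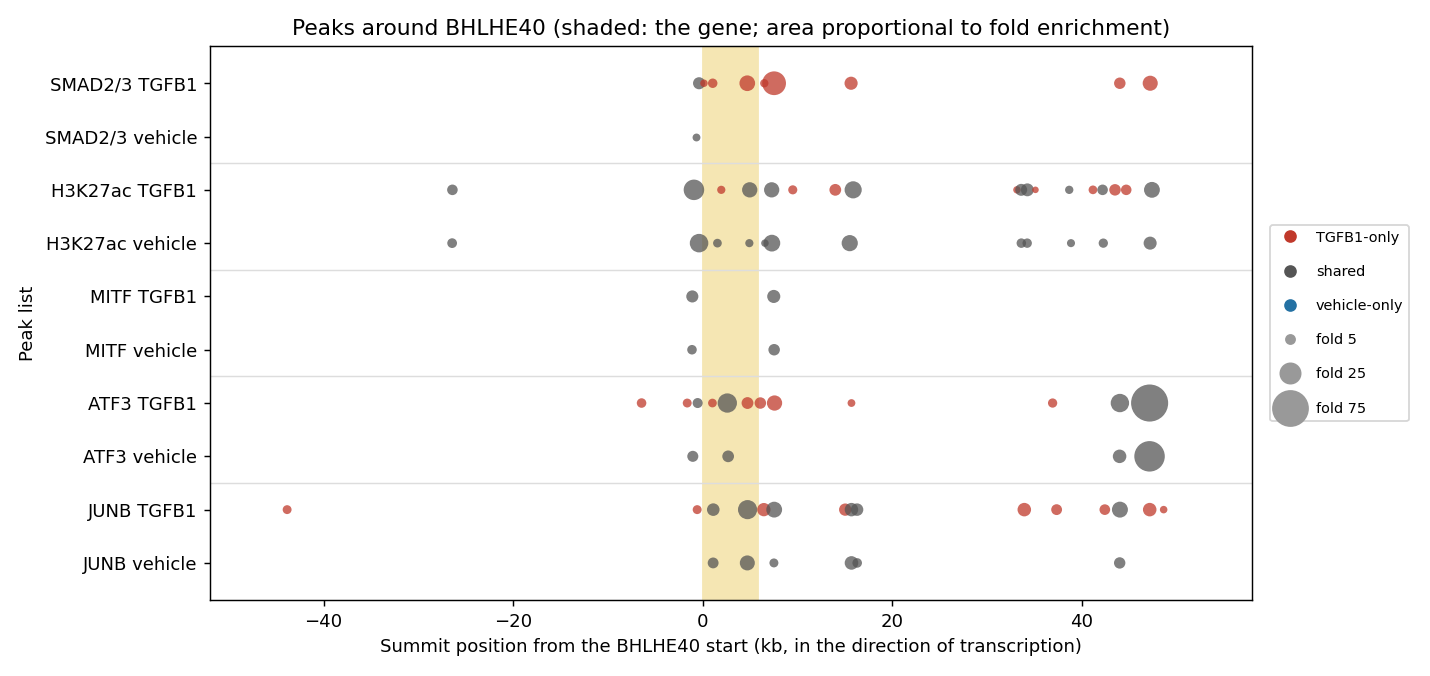
Summits of all 81 peaks at BHLHE40, by distance from the start in kb (horizontal axis) and peak list (vertical axis). Circle area is proportional to fold enrichment, red marks TGFB1-only and grey shared peaks, and the shaded band is the gene. No vehicle-only peak is present, and most peaks lie at the gene or up to 50 kb downstream of it.

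H3K27ac covered more sequence around BHLHE40 with TGFB1 than with vehicle. The 18 peaks with TGFB1 covered 18.5 kb at a mean fold of 9.34, against 12 peaks, 9.12 kb and a mean fold of 8.60 with vehicle. The difference was 9.42 kb, and 24 of 19970 genes (0.120%) had one as large, beside a median of 0.058 kb over all genes. Over the whole lists H3K27ac covered 62.3 Mb with TGFB1 and 57.7 Mb with vehicle. Among the other genes the same difference lay between -0.130 kb at DBP and 1.29 kb at NR1D1. The 8 TGFB1-only peaks of BHLHE40 had modest enrichment, between the 2.65-fold at 35.1 kb and the 8.48-fold (27 reads) at 14.0 kb from the start.

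**Figure D3:**
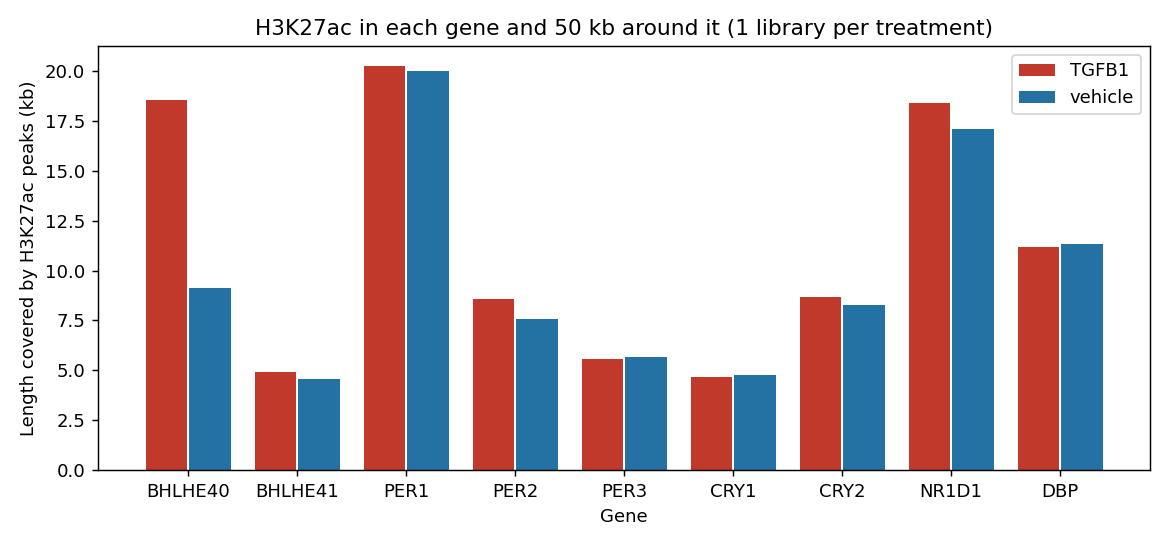
Length covered by H3K27ac peaks (kb, vertical axis) in each gene and 50 kb around it, with TGFB1 (left bar, red) and vehicle (right bar, blue), from 1 library per treatment. BHLHE40 had 18.5 kb and 9.12 kb, and the other 8 genes differed by at most 1.29 kb.

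ATF3 and JUNB also had more peaks at BHLHE40 with TGFB1. In the whole TGFB1 lists, 22.8% of ATF3 peaks and 41.8% of JUNB peaks overlapped a vehicle peak. ATF3 had 12 peaks with TGFB1 and 4 with vehicle, and 4 of its 8 TGFB1-only peaks would not have been detectable at the depth of the vehicle library. In the gene body ATF3 was shared at 2.61 kb, with 22.9-fold enrichment and 80 reads (63.4 to 99.6) with TGFB1 against 8.42-fold and 12 reads (6.20 to 21.0) with vehicle. The local backgrounds were 2.54 and 0.544 reads, and the plain ratios 31.4 with TGFB1 and 22.1 with vehicle. JUNB had 15 peaks with TGFB1 and 6 with vehicle, and all 9 of its TGFB1-only peaks would have been callable at the vehicle background. The one of highest −log10 p (46.1) at any of the 9 genes was also at BHLHE40, 34.0 kb downstream of the start, with 11.2-fold enrichment and 60 reads. MITF had the same 2 sites under both treatments.

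BHLHE41, the close relative of BHLHE40, lies on chr12:26120030-26125037 on the minus strand. It had 1 SMAD2/3 peak with TGFB1 and none with vehicle, 10.6 kb downstream of its start and past its end, with 4.91-fold enrichment and 18 reads (10.7 to 28.4). The peak sits in an H3K27ac domain with 13.6-fold enrichment and 152 reads (129 to 178) with TGFB1 and 26.9-fold and 119 reads (98.6 to 142) with vehicle. The lower fold with TGFB1 went with a local background of 10.3 reads, against 3.47 with vehicle. ATF3 and JUNB overlapped the SMAD2/3 peak with TGFB1 only, at 5.92-fold and 5.27-fold, while MITF did so with vehicle only, at 5.39-fold (10 reads). SMAD2/3 and ATF3 were called here with TGFB1 only over acetylation listed in both, as at the 7.55 kb site of BHLHE40. The same held at 1.07, 4.72, 6.52 and 15.7 kb of BHLHE40, -34.3 kb of PER1 and 1.51 kb of NR1D1. The ATF3 peaks at 1.07 and 15.7 kb of BHLHE40 would not have been detectable at the depth of the vehicle library. SMAD2/3 and ATF3 had lower enrichment here than at the 7.55 kb site, and MITF was not listed with TGFB1.

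H3K27ac at the start of BHLHE41 had 3.18-fold enrichment (23 reads) with TGFB1 and 2.91-fold (18 reads) with vehicle. A stronger region lay just upstream, with 11.1-fold enrichment (62 reads) at -1.49 kb with TGFB1 and 8.11-fold (52 reads) at -1.48 kb with vehicle. Its strongest JUNB and ATF3 peaks lay 28.5 kb upstream, inside SSPN, the gene of a muscle membrane protein. JUNB had 24.5-fold enrichment there with TGFB1 and 12.3-fold with vehicle, and ATF3 had 17.9-fold and 7.19-fold. The plain ratios for ATF3 were 26.07 with TGFB1 and 23.05 with vehicle, nearer to each other than the deposited folds. Of its 7 ATF3 TGFB1-only peaks, 1 would have been detectable at the depth of the vehicle library.

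PER1, a core repressor of CLOCK and BMAL1, lies on chr17:8140472-8152404 on the minus strand, among closely packed genes. ATF3 had its strongest peak within 1 kb of any of the 9 starts at PER1, with the summit at -0.026 kb with TGFB1 and -0.025 kb with vehicle, inside the promoter sequence shown. Enrichment was 34.4-fold with 125 reads (104 to 149) with TGFB1, against 17.3-fold with 29 reads (19.4 to 41.6) with vehicle. The local background was 2.66 reads with TGFB1 and 0.729 with vehicle, and the plain ratios were 46.9 and 39.8. JUNB was called at the same start with TGFB1 only, at 4.27-fold and 21 reads. Neither the AP-1 nor the CRE letters searched occur in this promoter window.

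The 3 SMAD2/3 peaks assigned to PER1 were all TGFB1-only and all nearer to other genes. Those at -20.7 kb (5.17-fold, 11 reads) and -21.1 kb (7.71-fold, 17 reads) lay inside TMEM107, a gene of the primary cilium, and that at -34.3 kb (3.61-fold, 10 reads) lay 1.61 kb from BORCS6. At -21.1 kb ATF3 was enriched 17.8-fold with TGFB1 and 5.90-fold with vehicle, and JUNB 8.76-fold and 7.13-fold. The plain ratios for ATF3 were 24.5 with TGFB1 and 15.2 with vehicle. No SMAD2/3 peak had PER1 itself as its nearest gene, and 1 of the 3 was kept at a −log10 q of at least 5.

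MITF had 8 peaks at PER1 with TGFB1 and 7 with vehicle, more than at any other of the 9 genes. In each list 1 had PER1 as the nearest gene, and the others lay nearer to HES7, ALOXE3 or BORCS6. The TGFB1-only peak at 13.5 kb from the start, 1.59 kb past the end of PER1, had 9.80-fold enrichment and 17 reads, and was the strongest MITF TGFB1-only peak at the 9 genes. The vehicle-only peak nearest to PER1 lay 12.9 kb from the start with 5.56-fold enrichment and 11 reads. The strongest vehicle-only MITF peak at the 9 genes was at 32.1 kb, near HES7, with 9.66-fold enrichment and 15 reads. An ATF3 vehicle-only peak, the strongest of 4 at the 9 genes, lay at 12.9 kb with 6.06-fold enrichment and 8 reads. JUNB had a shared peak beside it, at 7.24-fold (49 reads) with TGFB1 and 8.70-fold (33 reads) with vehicle.

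PER2, the period gene whose loss shortens and disrupts rhythms in mice, lies on chr2:238244044-238300065 on the minus strand, with the RefSeq promoter at an internal start at 238288610. It had 1 SMAD2/3 peak, TGFB1-only, at -0.491 kb from that start, chr2:238288988-238289205, just upstream of the sequence shown. The peak was weak, with 5.0-fold enrichment, 10 reads (4.80 to 18.4) and a −log10 p of 7.21, and it was lost at a −log10 q of at least 5. Of the other antibodies, H3K27ac alone overlapped it. Acetylation at the start had 113 reads (93.1 to 136) and 24.1-fold enrichment with TGFB1, against 87 reads (69.7 to 107) and 13.5-fold with vehicle. These intervals overlap. No MITF peak was listed at PER2, and its strongest ATF3 peak, 68.1 kb past the start and nearest to ILKAP, had 15.1-fold enrichment with TGFB1 and 11.1-fold with vehicle, at plain ratios of 23.3 and 39.8.

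PER3, the third period gene, lies on chr1:7784291-7845177 on the plus strand and had no SMAD2/3 peak in either list. Inside the gene, 26.2 kb from the start, JUNB had 24.3-fold enrichment and 103 reads (84.1 to 125) with TGFB1, against 8.84-fold and 49 reads (36.2 to 64.8) with vehicle. ATF3 was called at the same place with TGFB1 only, at 9.03-fold and 29 reads. The local background of JUNB there was 3.28 reads with TGFB1 and 4.65 with vehicle. All 4 JUNB peaks of PER3 in each list were shared. H3K27ac at the PER3 start had 72 reads and 7.76-fold enrichment with TGFB1, and 61 reads and 8.31-fold with vehicle. A peak further upstream had 43 reads and 5.19-fold at -0.730 kb with TGFB1, and 47 reads and 16.7-fold at -0.769 kb with vehicle, over backgrounds of 7.47 and 1.88 reads. The 1 MITF peak of PER3 was vehicle-only and lay inside UTS2, with 6.81-fold enrichment and 11 reads.

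The cryptochromes CRY1 and CRY2, the partners of the period proteins, had no SMAD2/3 or MITF peak in any list. CRY1 lies on chr12:106991364-107093549 on the minus strand. JUNB was enriched at its start under both treatments, 6.41-fold with 29 reads with TGFB1 and 9.48-fold with 30 reads with vehicle, and this was the 1 promoter window of the 9 genes that a JUNB peak overlapped in both lists. H3K27ac at the CRY1 start had 132 reads and 12.9-fold enrichment with TGFB1, and 118 reads and 21.2-fold with vehicle. Neither of the 2 ATF3 TGFB1-only peaks of CRY1 would have been detectable at the depth of the vehicle library. The strongest JUNB vehicle-only peak at the 9 genes lay in CRY1, 2.23 kb from its start, with 3.76-fold enrichment and 12 reads.

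CRY2 lies on chr11:45847118-45883244 on the plus strand. Its H3K27ac peak near the start had 122 reads and 16.0-fold enrichment with TGFB1, and 93 reads and 14.4-fold with vehicle. Of its 2 RefSeq promoter windows, the downstream one overlapped this peak in both lists and the upstream one no H3K27ac peak. The strongest JUNB peak of CRY2 was in the gene, 32.9 kb from the start, at 9.73-fold (43 reads) with TGFB1 and 6.63-fold (22 reads) with vehicle. Its strongest ATF3 peak lay inside MAPK8IP1, 52.4 kb from the start, at 15.0-fold with TGFB1 and 12.5-fold with vehicle, and at plain ratios of 19.0 and 44.9.

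NR1D1, the nuclear receptor that represses BMAL1, lies on chr17:40092793-40100589 on the minus strand and overlaps the end of THRA, a thyroid hormone receptor gene on the opposite strand. It had 3 SMAD2/3 peaks with TGFB1 and 1 with vehicle. The strongest lay inside THRA, 28.1 kb from the NR1D1 start, and was shared, with 10.4-fold enrichment and 36 reads (25.2 to 49.8) with TGFB1 against 4.34-fold and 18 reads (10.7 to 28.4) with vehicle. The intervals overlap slightly, at a lower background with TGFB1 (2.55 reads) than with vehicle (3.38 reads). Inside NR1D1, 1.51 kb from the start, SMAD2/3 had 4.05-fold enrichment and 18 reads with TGFB1 only. That site held a JUNB peak in both lists, at 16.7-fold with 103 reads with TGFB1 and 14.0-fold with 58 reads with vehicle. The third, at -39.8 kb and next to CASC3, had 4.31-fold enrichment with TGFB1 only, within the acetylated region of highest fold among the 17 SMAD2/3 sites, 46.4-fold with TGFB1 and 40.6-fold with vehicle.

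MITF was listed at the start of NR1D1 in both lists, and this was the 1 promoter window of the 9 genes that a MITF peak overlapped. The summit lay at -0.122 kb with 7.85-fold enrichment and 19 reads with TGFB1, and at -0.153 kb with 3.16-fold and 17 reads with vehicle. The reads were close and the local backgrounds differed, 1.55 reads with TGFB1 and 4.69 with vehicle. The promoter sequence of NR1D1 has neither the E-box nor the M-box letters searched. JUNB had a further shared peak upstream, at -0.735 kb, with 10.7-fold enrichment (73 reads) with TGFB1, and at -0.756 kb with 6.71-fold (34 reads) with vehicle. The H3K27ac TGFB1-only peak of highest −log10 p (21.1) at the 9 genes was assigned to NR1D1 but lay inside THRA, with 7.22-fold enrichment and 34 reads.

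DBP, the D-box activator, lies on chr19:48630030-48637379 on the minus strand among many genes and is the 1 gene of the set with a SMAD2/3 vehicle-only peak. That peak lay at -32.0 kb inside NTN5, with 5.16-fold enrichment and 19 reads (11.4 to 29.7), and no peak of any other list overlapped it. The H3K27ac vehicle-only peak of highest −log10 p (11.3) at the 9 genes was also upstream of DBP, at -38.4 kb near NTN5, with 4.67-fold enrichment and 25 reads. MITF had its strongest peak at any of the 9 genes at -7.60 kb from the DBP start, inside CA11, the gene of a carbonic anhydrase-related protein. It had 18-fold enrichment (30 reads) with TGFB1 and 25.2-fold (46 reads) with vehicle. All 10 ATF3 peaks of DBP were TGFB1-only, 7 of them callable at the vehicle background, and each lay nearer to another gene. In DBP itself, MITF had a weak shared peak 2.76 kb from the start, at 4.71-fold (11 reads) with TGFB1 and 3.57-fold (10 reads) with vehicle.

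The 17 SMAD2/3 peaks with TGFB1 at these genes were compared with the peaks of the other antibodies at the same sites. With TGFB1, 16 overlapped an H3K27ac peak, 15 a JUNB peak, 14 an ATF3 peak and 4 a MITF peak. With vehicle, the same sites overlapped 15 H3K27ac, 10 JUNB, 5 ATF3 and 5 MITF peaks. Of all 11406 SMAD2/3 peaks, 75.7% overlapped H3K27ac, 62.0% JUNB, 45.9% ATF3 and 11.9% MITF with TGFB1, and 69.5%, 48.0%, 18.6% and 13.0% with vehicle. At BHLHE40 all 9 SMAD2/3 sites overlapped H3K27ac and JUNB with TGFB1 and 8 overlapped ATF3, while at the other genes 7, 6 and 6 of 8 did. The sites without any AP-1 factor in the TGFB1 lists were the PER2 promoter peak and the peak inside THRA.

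**Figure D4:**
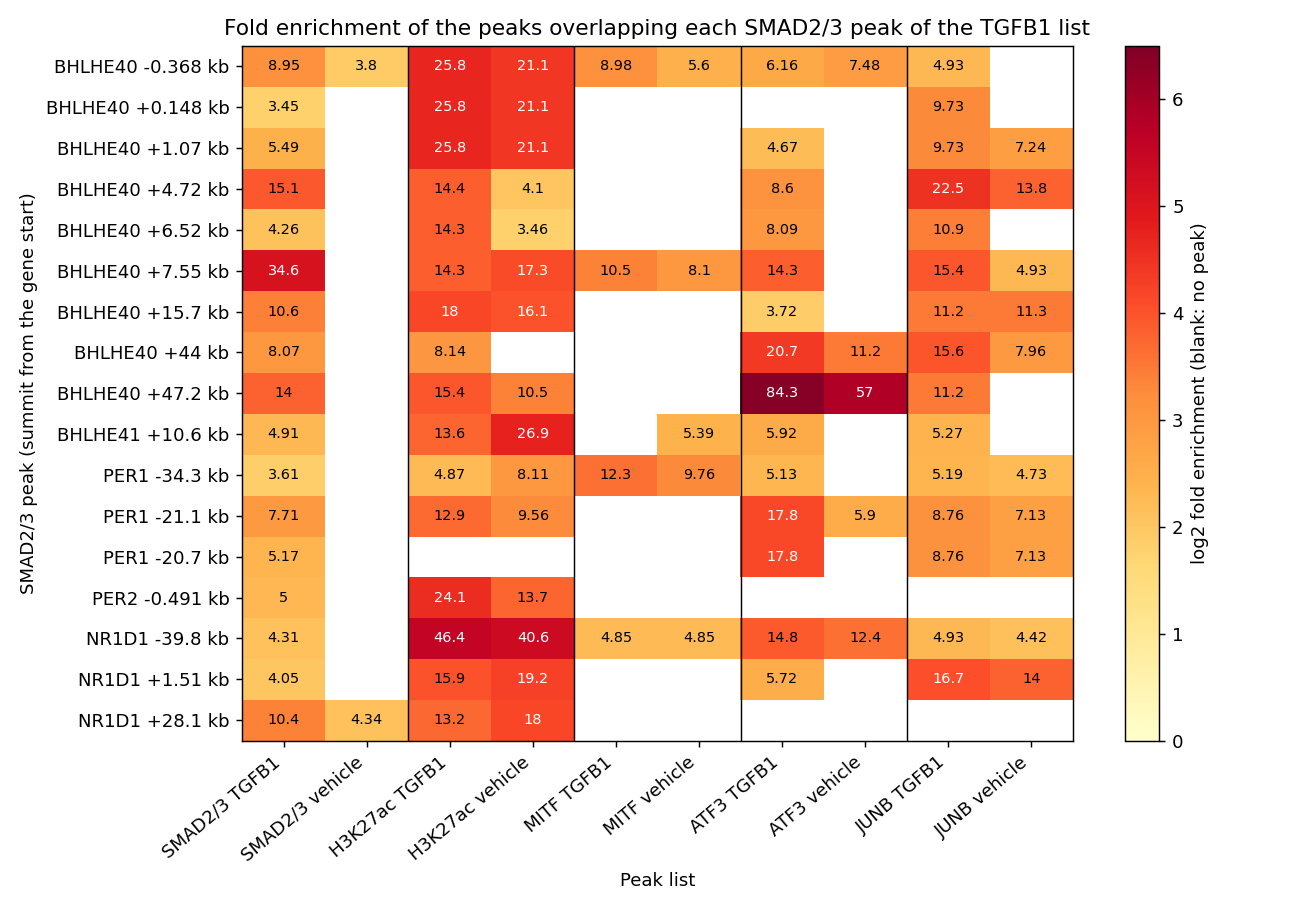
Fold enrichment (printed, and coloured by its log2) of the strongest peak of each list (columns) that overlaps each of the 17 SMAD2/3 peaks with TGFB1 (rows, by distance from the gene start), with blank cells for no peak. ATF3 columns are mostly filled with TGFB1 (14 of 17) and mostly blank with vehicle (5 of 17), while H3K27ac is filled in both (16 and 15). The ATF3 vehicle library was the shallower of its pair. Of all SMAD2/3 peaks with TGFB1, 45.9% overlapped ATF3 with TGFB1 and 18.6% with vehicle.

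The strongest H3K27ac peaks assigned to 7 of the 9 genes lay inside neighbouring genes and were shared between treatments. At PER1 it was inside VAMP2, with 32.6-fold enrichment with TGFB1 and 56.6-fold with vehicle, and at PER3 inside VAMP3, with 32.5-fold and 27.9-fold. At PER2 it was inside ILKAP (21.6-fold and 40.7-fold), at CRY1 inside TMEM263 (32.1-fold and 28.8-fold) and at DBP inside RPL18 (20.3-fold and 24.2-fold). For CRY2 it was inside SLC35C1 with TGFB1 (16.9-fold) and inside MAPK8IP1 with vehicle (17.7-fold), and for NR1D1 inside CASC3 with TGFB1 (46.4-fold) and MSL1 with vehicle (41.9-fold). BHLHE40 and BHLHE41 were the 2 genes whose strongest H3K27ac peak had the gene itself as its nearest. Likewise the strongest JUNB peak of DBP lay inside SULT2B1 (8.0-fold with TGFB1 and 4.13-fold with vehicle) and the strongest ATF3 peak of NR1D1 next to CASC3 (14.8-fold with TGFB1 and 12.4-fold with vehicle, at plain ratios of 19.0 and 30.9). At PER1 the strongest JUNB peak with TGFB1 was inside ALOXE3, at 14.6-fold, and PER2 had a single JUNB peak, 3.10-fold and TGFB1-only, near HES6.

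At the gene starts themselves, H3K27ac was present within 1 kb at all 9 genes under both treatments. SMAD2/3 was present there at 2 genes with TGFB1 (BHLHE40 and PER2) and 1 with vehicle (BHLHE40). ATF3 was listed near the start of 5 genes with TGFB1 and 1 (PER1) with vehicle, and JUNB near 5 with TGFB1 and 2 (CRY1 and NR1D1) with vehicle. MITF was near the start of NR1D1 alone in both lists. Apart from PER1, the ATF3 peaks near starts had 2.97-fold to 6.16-fold enrichment with TGFB1. The one at BHLHE40 overlapped a vehicle peak with its summit at -1.03 kb, just past the 1 kb limit. Those at BHLHE41 and CRY1 would not have been detectable at the depth of the vehicle library. The share of all genes with a peak near the start was not computed, so these counts are not read as a trait of the 9 genes. The whole ATF3 and JUNB lists also held more peaks with TGFB1, and the ATF3 vehicle library was the shallower of its pair.

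**Figure D5:**
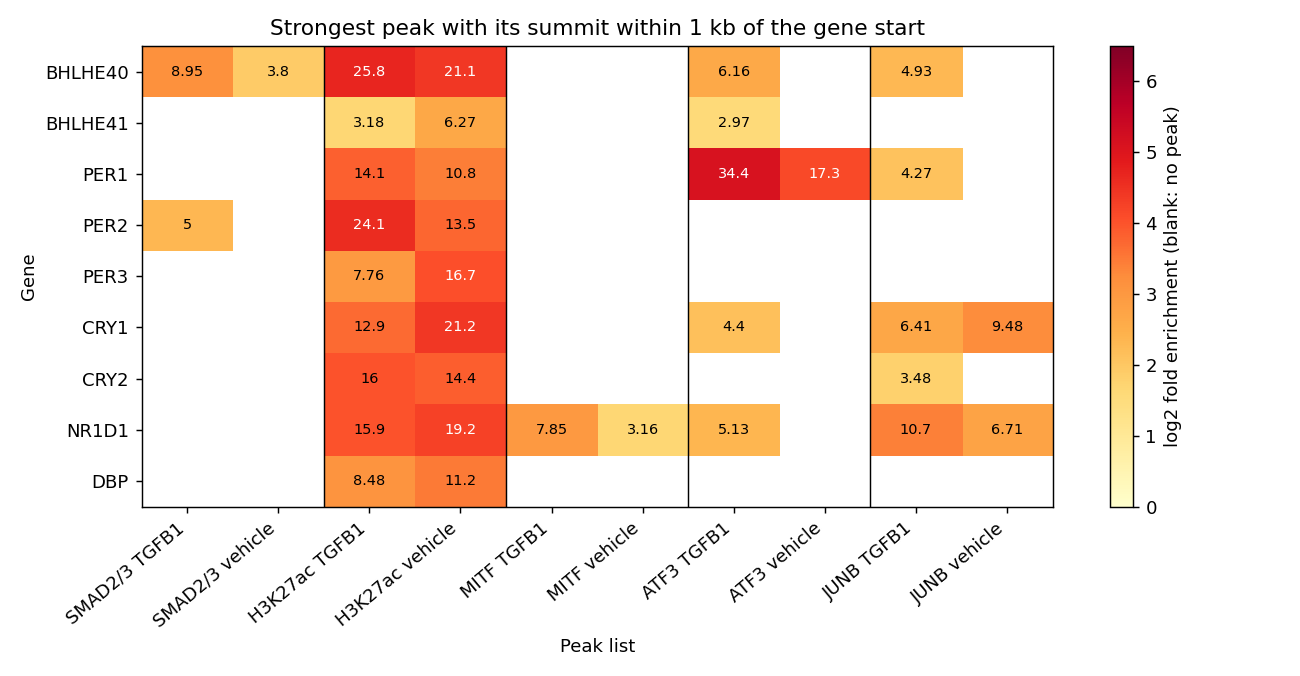
Fold enrichment (printed, and coloured by its log2) of the peak of highest −log10 p with its summit within 1 kb of each gene start (rows) in each list (columns), with blank cells for no peak. The peaks of the 2 treatments can be different sites, as for H3K27ac at PER3 and BHLHE41. H3K27ac is filled for all 9 genes, ATF3 stands at 34.4 and 17.3 at PER1, and SMAD2/3 is filled at BHLHE40 and PER2.

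The wider clock was read from a list of 19 further genes. A SMAD2/3 peak with TGFB1 lay in or within 50 kb of 8 of them, against 47.9% of all genes, and with vehicle at 1, against 3.85%. Of the activators, NPAS2, which can stand in for CLOCK, had 4 TGFB1-only peaks, the strongest inside the gene at 15.2-fold. BMAL1, the partner of CLOCK and the gene that NR1D1 represses, had 4, the strongest inside the gene at 9.76-fold, and CLOCK had 2, the stronger at 6.51-fold and 18.2 kb outside the gene. BMAL2 had none.

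Among the nuclear receptors of the wider list, NR1D2, the relative of NR1D1, had 2 TGFB1-only peaks, the stronger inside the gene at 5.97-fold, and also the 1 SMAD2/3 peak with vehicle on this list, 25.8 kb outside the gene at 6.32-fold. RORB had 2, at up to 4.67-fold, and RORA had none. TEF, a relative of DBP, had 4, the strongest 49.1 kb away at 6.15-fold, while HLF and NFIL3 had none. The kinase gene CSNK1D, whose product phosphorylates the period proteins, had 5, the strongest 21.2 kb outside the gene at 7.81-fold. The strongest BHLHE40 site had 34.6-fold enrichment. BHLHE40 was chosen on that peak, so the 8 genes are not ranked against it.

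The genes most like BHLHE40 across the 10 lists were found by the within-list percentile of the strongest peak at each gene, as the mean absolute difference over the lists. The median gene differed from BHLHE40 by 36.7 percentile points. The 5 closest were KCNQ1, a potassium channel gene, at 2.48 points, HES1, a basic helix-loop-helix repressor gene of the Notch pathway, at 2.69, LOC102724877, whose percentiles were the same as those of HES1 in all 10 lists, also at 2.69, UBE4B, a ubiquitin ligase gene, at 2.72, and GDF15, a secreted ligand gene of the TGF-beta superfamily, at 3.38. Among the other genes of the set PER1 was closest at 8.17 points (place 391 of all genes ranked), followed by NR1D1 at 12.7 (place 1063). CRY1 was farthest at 48.0. Of the 117 peaks at PER1, 29 had it as their nearest gene, and of the 48 at NR1D1, 16 did. BHLHE41 stood at 25.1 points.

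The 50 kb window had no SMAD2/3 peak near its edge. The outermost peaks inside it lay 39.8 kb from NR1D1 and 41.4 kb from BHLHE40 (4.31-fold and 14.0-fold), and the next outside lay 100 kb from PER2 and 102 kb from BHLHE41 (6.82-fold and 4.23-fold). The label of the cell line was checked by H3K27ac within 1 kb of marker genes: 6 of 8 melanocyte and melanoma markers had a peak with TGFB1 and 5 with vehicle. SOX10 stood at 35.0-fold with TGFB1 and 50.6-fold with vehicle, MLANA had 1 weak peak with TGFB1 only, and the pigment genes TYR and DCT had none. Of 8 markers of other cell types, 4 had a peak with TGFB1 and 5 with vehicle, among them CDH1, CD3E, PECAM1 and GFAP. EPCAM, ALB and NEUROD1 had none. GFAP stood at 22.9-fold with TGFB1 and 26.1-fold with vehicle. With TGFB1, 4 markers of each set had a −log10 p of at least 20. With vehicle, 4 melanocyte and melanoma markers and 3 of the others did. The check thus did not separate these sets of markers and does not decide on the label.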

How the data were processed

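Chromatin immunoprecipitation and sequencing libraries of A375 cells were compared by antibody and treatment, 1 library each. Reads were aligned with Bowtie to GRCh38 and peaks called per library with MACS2 2.0, per the submitters' processing notes. Control, duplicate handling and threshold are not given in the sources used here. The lowest −log10 q deposited in every list was near that of q = 0.05. The fold enrichment ratio and the −log10 p of each peak are the authors' deposited values. The score column that the authors deposited, 10 times the −log10 q cut to a whole number, was left unused. The design text speaks of technical triplicates, while the labels list 1 library per antibody and treatment.

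Peaks were assigned to genes of the RefSeq GRCh38.p14 table by summit, in the body or within 50 kb, and overlapped at 1 bp or more. Reads and background at each summit were solved from fold, with 1 added to each, and Poisson p, and reads came out whole within 0.01 for at least 99.98% of peaks in every list, which was tested on simulated data. Exact 95% Poisson intervals cover counting error only, since reads without molecular identifiers are not independent molecules. Peaks were called detectable at the partner's depth when reads and background, scaled by the ratio of the lowest backgrounds, reached the lowest −log10 p of the partner list. Python 3.11.15, numpy 2.4.6, pandas 2.3.3, scipy 1.17.1 and matplotlib 3.10.9 were used. No p-value was computed.

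The genes and lists were chosen with earlier results of these data known. Named were all 9 genes, their SMAD2/3 peaks, the strongest peaks of the other antibodies over the set and per gene, wider clock genes with a SMAD2/3 TGFB1-only peak, and the 5 genes most like BHLHE40. Some genes that this rule names are counted but not reported here by name. Other peaks at the 9 genes were named after their values were seen. Alternatives were a window of 10 kb, a −log10 q of at least 5, reciprocal overlap of 50%, peaks whose nearest gene is the member, and, chosen after seeing the data, enrichment with nothing added to reads and background. Sequence at the peaks themselves was not used here.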

Additional observations from a re-analysis of the deposited data

How the results depend on the processing

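No paired analysis was possible because each antibody and treatment had 1 library, and for the same reason no library could be left out. Peak counts below are TGFB1-only, then vehicle-only, summed over the 9 genes. Within 10 kb of a gene they were 9 and 0 for SMAD2/3, 6 and 6 for H3K27ac, 1 and 2 for MITF, 28 and 2 for ATF3, and 18 and 1 for JUNB. With reciprocal overlap of 50%, H3K27ac had 36 and 41, and the vehicle-only counts were 2 for SMAD2/3, 9 for ATF3 and 13 for JUNB. Where the member had to be the nearest gene, H3K27ac had 9 and 3, MITF 1 and 2, ATF3 23 and 2, JUNB 22 and 1, and SMAD2/3 had 0 vehicle-only. At a −log10 q of at least 5, vehicle-only counts were 3 for MITF, 1 for ATF3 and 0 for JUNB. Of the 44 alternative values for these sums and for the number of genes with a SMAD2/3 TGFB1-only peak, the other 17 stayed within 1.5 times the value reported. For single genes, the SMAD2/3 TGFB1-only count at a −log10 q of at least 5 was 0 at PER2 and 1 at PER1, and it was 0 at PER1 within 10 kb and where the member had to be nearest. With nothing added to reads and background, chosen after seeing the data, the ATF3 ratio of TGFB1 over vehicle fell below 1 at BHLHE40 47.2 kb (0.700), PER2 (0.585), PER3 (0.610), CRY2 (0.422) and NR1D1 (0.616), which lay above 1 as deposited. The shallow ATF3 vehicle library limits these most.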
